A study of Mus musculus with 16 samples.

Results

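Wild-type mouse testis was compared between embryonic day 14.5 (E14.5) and embryonic day 12.5 (E12.5). The labels name 4 of the 16 arrays of the series as wild-type testis of these stages, 2 arrays at E14.5 and 2 at E12.5, and all 4 were used. The series profiled whole embryonic gonads of both sexes from wild-type mice and from Wnt4 knock-out mice, which lack a WNT ligand gene, on Affymetrix Mouse430_2 arrays. Per the labels' protocols, embryos were staged by their morphology and gonads were kept frozen until PCR had given the genotype. Changes over the same 2 days in Wnt4 knock-out testis and in wild-type ovary, each with 2 arrays per stage, are given beside those of wild-type testis. No array is shared between these 3 comparisons. Titles of the male arrays name an ovary while their source names a testis, and the arrays were treated as testis. Arrays of a stage are called biological replicates in the labels, with no word on how many embryos went into each. The p-values cover only the spread between replicate arrays, estimated over all 8 groups of the series. The sources used here give neither the strain nor the kind of Wnt4 allele. In RNA from a whole gonad, fewer cells of a type and less RNA per cell cannot be told apart.

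In the mouse, testis cords form around the earlier of these stages, when Sertoli cells, the supporting cells of the testis, enclose the germ cells. Sertoli cells signal to the interstitium through desert hedgehog, and fetal Leydig cells differentiate there and make androgens from cholesterol. Male germ cells leave the cell cycle over the following days and switch on the piRNA pathway, in which small RNAs guide PIWI proteins to transposon transcripts, while germ cells of the ovary enter meiosis in the same period. Chromaffin cells and sympathetic neurons belong to the adrenal medulla and to ganglia that lie close to the gonad.

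The sex labels and the quality of the 4 arrays were read first. The Y-linked gene Eif2s3y read 867 and 904 at E14.5, against 1127 and 999 at E12.5. Xist, the RNA of the inactive X chromosome of females, read 8.78 and 1087 at E14.5, against 5.92 and 5.98 at E12.5. The value of 1087 in E14.5 replicate 2 equals 22.9% of the mean Xist signal of the 4 ovary arrays of that stage, wild-type and knock-out. Signal of the opposite sex was present in comparison arrays too. Xist read 788 in knock-out testis E14.5 replicate 2, or 16.6% of that ovary mean. In wild-type ovary, Y-linked genes read 22.6% and 9.02% of their level in testis at E12.5, and 20.2% in E14.5 replicate 2. Between the E12.5 arrays, log2 intensities differed with an SD over genes of only 0.142. For the E14.5 arrays this SD was 0.401, and over all 7 other replicate pairs of the series it ran from 0.335 to 0.587. Whether these arrays hold the same RNA is not stated in the labels. Counts are therefore also given with the E12.5 arrays averaged into 1 sample, without E14.5 replicate 2, and with both changes at once. Wnt4, the targeted gene, read 753 and 512 at E14.5, against 502 and 473 at E12.5 in wild-type testis, and 277 and 371 at E14.5, against 413 and 231 at E12.5 in testis labelled knock-out. These values do not check the genotype, since the labels do not place the deletion relative to the probe set. A measure of RNA breakdown, the 3' over 5' signal of the controls for actin and Gapdh, was 1.06 and 1.25 at E14.5, against 1.12 and 1.13 at E12.5. Mean intensity per array lay between 272 and 288 over the series.

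Values below are deposited intensities in arbitrary units, and changes are differences of log2(intensity + 4), E14.5 minus E12.5, which understate the change of dim genes. Between E12.5 and E14.5, 1306 of the 12336 genes tested changed in wild-type testis at a limma adjusted p below 0.05, or 10.6%. Of these, 830 rose (6.73% of the genes tested) and 476 fell (3.86%), and 508 and 261 did so by at least 2-fold. Every rise and fall called was of arrays that did not overlap between the stages, while over all genes tested 40.2% were higher and 29.1% lower in both E14.5 arrays. The median change over all genes was 0.07. With the E12.5 arrays averaged, 224 genes rose and 78 fell, all of them among the 830 and 476. Without E14.5 replicate 2, 309 rose and 116 fell, of which 304 and 112 were among them. With both changes the counts were 77 and 21. Leaving out another array gave 741 changed genes without E14.5 replicate 1, 339 without E12.5 replicate 1 and 260 without E12.5 replicate 2, and no gene called with all 4 arrays changed its sign in any of these settings.

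Leydig cell and germ cell genes stood at the top of the rises. Cyp17a1, which encodes the enzyme that turns progestins into androgens, had the largest rise of all genes called, followed by the germ cell gene Gtsf1, by Cyp11a1, which encodes the enzyme that starts steroid synthesis by cleaving the cholesterol side chain, and by the germ cell gene Mael. The other genes among the 15 largest rises were Nxf2, Tktl1, Morc1, Hao2, Gsta2, Tex12, Tdrd5, Piwil4, Tex19.2, Ephx1 and Sycp1, with log2 changes between 3.81 and 4.63. Morc1, which is needed to silence transposons in male germ cells, read 389 and 753 at E14.5, against 20.6 and 21.5 at E12.5 (log2 change 4.44, SE 0.66, limma adjusted p = 0.00114). Nxf2, a relative of the mRNA export factor Nxf1, read 146 and 259 at E14.5, against 3.99 and 4.08 at E12.5 (log2 change 4.63, SE 0.40, limma adjusted p = 3.84e-05). Hao2, which encodes a 2-hydroxyacid oxidase, read 577 and 578 at E14.5, against 25.2 and 25.2 at E12.5 (log2 change 4.31, SE 0.66, limma adjusted p = 0.0014). Gsta2, a glutathione S-transferase gene, read 242 and 181 at E14.5, against 8.61 and 7.37 at E12.5 (log2 change 4.16, SE 0.40, limma adjusted p = 6.47e-05). In each of these 4 genes both E14.5 arrays lay far above both E12.5 arrays. Tex12 and Sycp1 of this group are meiosis genes, Tdrd5 and Piwil4 belong to the piRNA pathway, and Ephx1 encodes an epoxide hydrolase.

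Genes of neurons and neuroendocrine cells stood at the top of the falls. Chgb, which encodes a protein of secretory granules, fell most (log2 change -6.65), and Insm1, Isl1, Nefl, Gap43, Nefm, Rgs4 and Phox2a, all genes of neurons or neuroendocrine cells, were among the 15 largest falls as well. The others were A930009L07Rik, Crh, Cxcl13, Tbx20, Hbb-bh1, Miat and Col9a1. Crh, which encodes corticotropin-releasing hormone, read 4.13 and 3.64 at E14.5, against 119 and 112 at E12.5 (log2 change -3.92, SE 0.32, limma adjusted p = 2.44e-05). Cxcl13, a chemokine gene, read 16.1 and 22.8 at E14.5, against 297 and 308 at E12.5 (log2 change -3.72, SE 0.34, limma adjusted p = 5.44e-05). Col9a1, which encodes a chain of collagen IX, read 54.3 and 42 at E14.5, against 528 and 459 at E12.5 (log2 change -3.26, SE 0.33, limma adjusted p = 8.33e-05). In knock-out testis the change of every gene of both groups of 15 had the same sign as in wild-type testis, and it was smallest for Miat (-0.83). In ovary the signs were the same as well with all arrays, with the smallest change for Piwil4 (0.11), but 4 of these signs rested on ovary E14.5 replicate 2, in which Y-linked genes read 20.2% of their level in testis. Without it the ovary changes of Cyp11a1, Hao2, Morc1 and Piwil4 were -1.45, -0.63, -0.15 and -0.07.

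**Figure D1:**
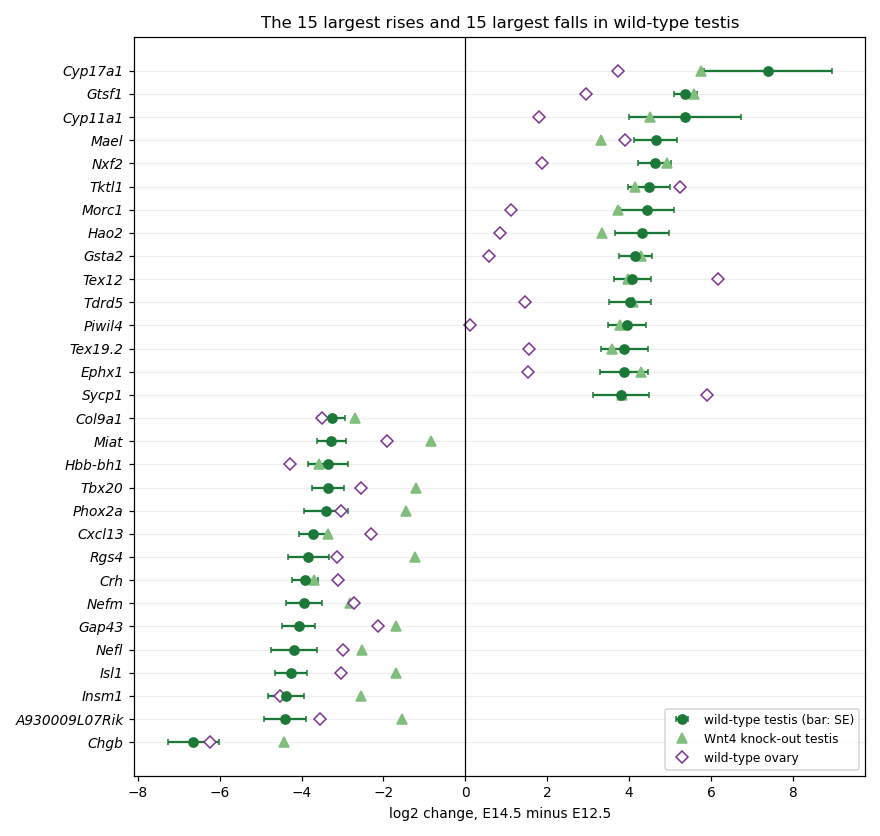
Log2 change from E12.5 to E14.5 (x axis) of the 15 genes with the largest rise and the 15 with the largest fall in wild-type testis. Circles with SE bars are wild-type testis, triangles Wnt4 knock-out testis and diamonds wild-type ovary; Cyp17a1 (7.39) and Chgb (-6.65) lie at the ends, and every triangle lies on the same side of 0 as its circle. The ovary changes of Cyp17a1, Cyp11a1, Hao2 and Morc1 depend on 1 ovary array at E14.5.

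Genes of fetal Leydig cells and steroid synthesis rose together. Of 13 genes listed, 7 were tested, and 6 rose while Mc2r fell, with a median log2 change of 3.34 against 0.07 over all genes. Cyp17a1 read 3787 and 2851 at E14.5, against 15.9 and 15.3 at E12.5 (log2 change 7.39, SE 1.56, limma adjusted p = 0.00975). Cyp11a1 read 2525 and 1522 at E14.5, against 42.4 and 44.9 at E12.5 (log2 change 5.37, SE 1.37, limma adjusted p = 0.025). Hsd3b1, which encodes the 3-beta-hydroxysteroid dehydrogenase of steroid synthesis, read 2821 and 2091 at E14.5, against 185 and 246 at E12.5 (log2 change 3.49, SE 0.64, limma adjusted p = 0.00454). In each of these 3 genes both E14.5 arrays stood far above the E12.5 arrays, and E14.5 replicate 2, the array with the Xist signal, was the lower of the 2. Star, whose protein carries cholesterol into mitochondria, read 568 and 505 at E14.5, against 48 and 50.5 at E12.5 (log2 change 3.34, SE 0.88, limma adjusted p = 0.0286). Scarb1, the receptor gene for high-density lipoprotein cholesterol, read 1174 and 1484 at E14.5, against 383 and 335 at E12.5 (log2 change 1.87, SE 0.33, limma adjusted p = 0.00336). Fdx1, which encodes the electron donor of mitochondrial P450 enzymes, read 2606 and 2646 at E14.5, against 1159 and 1099 at E12.5 (log2 change 1.22, SE 0.20, limma adjusted p = 0.00198). These rises were smaller, and again the stages did not overlap.

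The size of the Cyp17a1 and Cyp11a1 changes came with wide errors, because the fit shares its estimate of the spread over all 8 groups and single arrays of other groups differed. In ovary E14.5 replicate 2, where the Y-linked genes read 20.2% of their level in testis, Cyp17a1 read 1459, against 6.58 in replicate 1. Only 3 of the 6 rises, those of Fdx1, Scarb1 and Hsd3b1, passed with the E12.5 arrays averaged, and likewise without E14.5 replicate 2; the adjusted p of Cyp17a1 was then 0.0774 and 0.0594, that of Cyp11a1 0.142 and 0.101. With both changes none of the 6 passed. Without that ovary array the adjusted p in wild-type testis was 1.09e-04 for Cyp17a1 and 1.21e-04 for Cyp11a1. When only the 4 wild-type testis arrays were fitted, the adjusted p of Cyp17a1 was 0.00014. The spread in that fit came in part from the near-identical E12.5 pair, and 3365 genes passed in it, against 1306 with all arrays. Mc2r, which encodes the corticotropin receptor of the adrenal cortex and of fetal Leydig cells, read 17.6 and 13.4 at E14.5, against 53.4 and 48.7 at E12.5 (log2 change -1.51, SE 0.37, limma adjusted p = 0.0211), and its fall did not pass under either alternative. Insl3 and Lhcgr have no probe set named here, and Hsd3b6, Fdxr, Ren1 and Sult1e1 were not tested either. For Cyp11a1, 2 further probe sets read below 7 on all 4 arrays, so that the rise rests on 1 probe set, as it does for Cyp17a1, which has no other. With a covariate for RNA of the opposite sex in the fit, 4 of the 6 rises passed. The limma adjusted p was then 0.0318 for Cyp17a1 and 0.0692 for Cyp11a1.

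**Figure D2:**
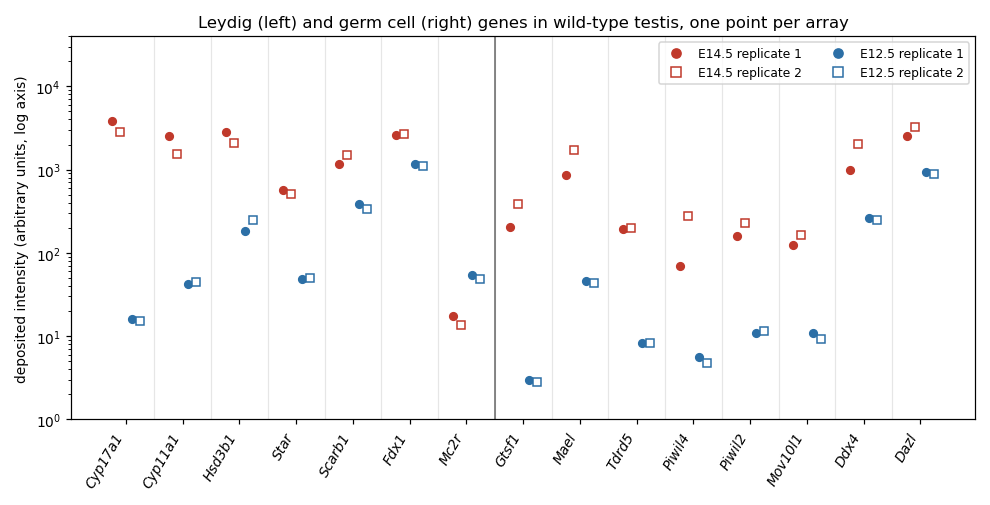
Deposited intensity (y axis, log scale, arbitrary units) of 7 genes of Leydig cells and 8 of germ cells, 1 point per wild-type testis array, with E14.5 in red left of E12.5 in blue. Every gene but Mc2r lies higher in both E14.5 arrays, and the E12.5 points of a gene almost coincide.

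Genes of cholesterol synthesis rose along with them. Of 21 listed genes 18 were tested, and 13 rose, none fell and 5 did not pass, with a median log2 change of 1.17. Dhcr7, which encodes an enzyme of a late step of the pathway, read 654 and 541 at E14.5, against 99.3 and 99.3 at E12.5 (log2 change 2.54, SE 0.38, limma adjusted p = 0.00115). Nsdhl, a sterol dehydrogenase gene, read 820.0 and 604 at E14.5, against 255 and 259.9 at E12.5 (log2 change 1.44, SE 0.21, limma adjusted p = 9.23e-04). Fdft1, the squalene synthase gene, read 1799.8 and 1630.2 at E14.5, against 774 and 731 at E12.5 (log2 change 1.18, SE 0.15, limma adjusted p = 4.96e-04), and Cyp51, the lanosterol demethylase gene, read 794 and 814 at E14.5, against 353 and 337 at E12.5 (log2 change 1.21, SE 0.20, limma adjusted p = 0.00202). The stages did not overlap in any of these 4 genes. Hmgcs1, Sqle, Idi1, Fdps, Lss, Msmo1, Hsd17b7, Insig1 and Srebf2 rose by 0.94 to 1.71. Mvk, Pmvk, Mvd, Ebp and Sc5d did not pass. In knock-out testis 9 of the 18 rose, where 2.76% of all genes rose, and in ovary none rose or fell, where 2.5% of all genes rose and 1.86% fell (4.36% in all). With the E12.5 arrays averaged 6 of the 13 rises passed, without E14.5 replicate 2 7, and with both changes 2.

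Most genes of the piRNA pathway rose. Of 23 listed genes 19 were tested, and 16 rose, none fell and 3 (Prmt5, Tdrkh and Wdr77) did not pass, with a median log2 change of 2.59. With the E12.5 arrays averaged 15 of the rises passed, without E14.5 replicate 2 15, and with both changes 10, against 224, 309 and 77 rises among all 12336 genes. Gtsf1, which encodes a cofactor of PIWI proteins, read 205 and 383 at E14.5, against 2.94 and 2.78 at E12.5 (log2 change 5.37, SE 0.28, limma adjusted p = 5.88e-07), and a second probe set changed by 3.84. Mael, which encodes a protein of the germ granules where piRNAs are made, read 858 and 1716 at E14.5, against 45.9 and 43 at E12.5 (log2 change 4.65, SE 0.52, limma adjusted p = 1.43e-04). In both genes the stages lay far apart, and at E12.5 Gtsf1 read among the dimmest values of the arrays. In wild-type ovary 7 of the 19 genes rose as well, where 2.5% of all genes rose. Mael rose by 3.90 in ovary (limma adjusted p = 7.12e-04), and the difference of its change from that in testis did not pass (0.75, limma adjusted p = 0.599).

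The PIWI protein genes moved in the same direction. Piwil4, whose protein acts in the nucleus of fetal male germ cells, read 68.6 and 276 at E14.5, against 5.66 and 4.72 at E12.5 (log2 change 3.96, SE 0.46, limma adjusted p = 2.13e-04), although a second, dim probe set changed only by 0.18. Piwil2, whose protein takes part in piRNA amplification in the cytoplasm, read 157 and 229 at E14.5, against 10.8 and 11.5 at E12.5 (log2 change 3.68, SE 0.44, limma adjusted p = 2.44e-04). Piwil4 differed more than Piwil2 between the E14.5 arrays, and in both genes replicate 1, the lower array, stood far above E12.5. Mov10l1, the helicase gene needed for making primary piRNAs, read 124 and 163 at E14.5, against 10.8 and 9.25 at E12.5 (log2 change 3.38, SE 0.30, limma adjusted p = 4.10e-05). Of the Tudor domain genes, whose proteins hold PIWI proteins in germ granules, Tdrd5 read 196 and 199 at E14.5, against 8.25 and 8.36 at E12.5 (log2 change 4.03, SE 0.51, limma adjusted p = 4.02e-04) and Tdrd9 read 26.5 and 25.7 at E14.5, against 7.36 and 6.87 at E12.5 (log2 change 1.44, SE 0.15, limma adjusted p = 8.93e-05). Tdrd1, Tdrd7 and Tdrd12 rose by 2.22, 2.59 and 2.39. Gpat2 and Asz1, whose proteins sit on the mitochondria where piRNA precursors are processed, rose by 3.13 and 3.08. The nuclease gene Exd1 rose by 2.89, the trimming enzyme gene Pnldc1 by 1.78, the Tudor domain gene Rnf17 by 1.65 and the nuclease gene Pld6 by 0.61, the smallest of the 16. Prmt5 and Wdr77, whose proteins together methylate PIWI proteins and many other targets, did not pass: Prmt5 read 960.5 and 763 at E14.5, against 595 and 563 at E12.5, while Wdr77 read 1501 and 1808 at E14.5, against 1738 and 1633 at E12.5.

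Because these genes rose together, the 250 bases before the annotated start were read for the piRNA and Leydig genes. The cholesterol synthesis and neuronal lists were read beside them, all from RefSeq promoters of build GRCm38.p6. Promoters were found for 19 of the 23 piRNA genes, and 7 of them (36.8%) held the E-box CACGTG, which reads the same on both strands, against 6.04% of all 27025 promoters of the table. The E-box contains CG, and the median count of CG in the window was 15 in piRNA promoters against 6 over all promoters. Among piRNA genes that rose, 5 of the 13 promoters found held the E-box (38.5%), near the 36.8% of the whole list. In the cholesterol synthesis list, with a median CG count of 21, 3 of 15 promoters held it (20%). In the chromaffin and neuronal list, with a median CG count of 15.5, none of 12 did. Of 9 promoters of the Leydig list none held the E-box. The site AAGGTCA, which the steroidogenic factor Nr5a1 is known to bind, was in 1 of them on either strand (11.1%), against 4.04% of all promoters. None of the 3 promoters found for Leydig genes that changed held this site. The E2F motif GGCGGGA was in 1 piRNA promoter, that of Mael (5.26%), against 9.79% of all promoters. None of these 3 motifs overlaps another in the windows shown. The 4 E-box promoters of genes that also rose with the E12.5 arrays averaged are printed below, beside those of Gtsf1 and Cyp11a1, which hold none of the 3 motifs, with motifs in capitals and the start following the last base. In Mael the E-box begins at -223 and the E2F motif at -143 relative to the start, in Mov10l1 the E-box begins at -246, in Tdrd1 at -11, and in Tdrd9 E-boxes begin at -165 and -95. The fifth, Pld6, holds it at -33.
Mael (chr1:166238745-166238994, minus strand): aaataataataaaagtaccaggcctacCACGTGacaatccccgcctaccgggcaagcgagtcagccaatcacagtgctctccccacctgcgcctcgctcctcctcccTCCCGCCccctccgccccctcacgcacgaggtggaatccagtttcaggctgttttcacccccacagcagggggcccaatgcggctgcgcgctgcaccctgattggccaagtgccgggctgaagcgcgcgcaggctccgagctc
Mov10l1 (chr15:88982744-88982993, plus strand): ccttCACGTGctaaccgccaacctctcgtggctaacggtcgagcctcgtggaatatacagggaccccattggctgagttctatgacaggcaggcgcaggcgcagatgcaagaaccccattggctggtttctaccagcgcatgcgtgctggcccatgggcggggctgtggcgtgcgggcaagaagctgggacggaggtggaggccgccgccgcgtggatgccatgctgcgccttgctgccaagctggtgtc
Tdrd1 (chr19:56825959-56826208, plus strand): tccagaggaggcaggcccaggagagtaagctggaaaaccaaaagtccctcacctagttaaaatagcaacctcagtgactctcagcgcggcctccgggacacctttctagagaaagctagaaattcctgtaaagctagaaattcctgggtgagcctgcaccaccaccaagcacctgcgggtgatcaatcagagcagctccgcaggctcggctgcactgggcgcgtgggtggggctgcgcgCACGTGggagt
Tdrd9 (chr12:111971309-111971558, plus strand): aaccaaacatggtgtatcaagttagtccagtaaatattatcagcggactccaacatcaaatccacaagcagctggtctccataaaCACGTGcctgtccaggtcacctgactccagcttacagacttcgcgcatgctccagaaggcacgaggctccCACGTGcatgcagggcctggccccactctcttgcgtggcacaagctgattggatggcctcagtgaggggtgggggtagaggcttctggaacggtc
Gtsf1 (chr15:103430428-103430677, minus strand): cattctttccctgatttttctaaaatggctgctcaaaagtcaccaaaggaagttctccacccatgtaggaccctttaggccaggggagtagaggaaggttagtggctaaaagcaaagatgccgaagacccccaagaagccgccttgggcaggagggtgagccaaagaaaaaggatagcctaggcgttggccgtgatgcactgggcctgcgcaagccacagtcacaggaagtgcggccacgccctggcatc
Cyp11a1 (chr9:57997774-57998023, plus strand): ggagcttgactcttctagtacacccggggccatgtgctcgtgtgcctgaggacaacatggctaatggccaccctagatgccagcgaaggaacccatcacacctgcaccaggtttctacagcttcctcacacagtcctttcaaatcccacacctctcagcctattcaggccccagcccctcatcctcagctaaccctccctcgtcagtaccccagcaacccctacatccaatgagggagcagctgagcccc

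Genes that mark germ cells in general rose less evenly, and their median log2 change was 0.53 in knock-out testis and -0.44 in ovary. In ovary 5 of the 11 tested rose and 2 fell, where 2.5% of all genes rose and 1.86% fell. Ddx4 and Dazl were among the ovary rises (1.66 and 0.87). Their changes in testis and ovary did not differ past the threshold (limma adjusted p = 0.45 and 0.229). In knock-out testis Dazl read 2756 and 3689 at E14.5, against 2144 and 2287 at E12.5 (log2 change 0.53, limma adjusted p = 0.257). Ddx4 read 1509 and 2015 at E14.5, against 570 and 687 at E12.5 there (log2 change 1.47, limma adjusted p = 0.0498). At E12.5 both genes read higher there than in wild-type testis, whose values follow. Of 11 germ cell identity genes tested 6 rose, Kit fell and 4 did not pass, with a median of 1.64. Dazl, an RNA-binding protein gene of germ cells, read 2550.0 and 3255 at E14.5, against 947 and 893 at E12.5 (log2 change 1.64, SE 0.22, limma adjusted p = 6.05e-04). Ddx4, the germ cell RNA helicase gene, read 987 and 2009 at E14.5, against 261 and 250.4 at E12.5 (log2 change 2.44, SE 0.38, limma adjusted p = 0.00167). Taf7l, a gene for a germ cell form of a general transcription factor, read 56.6 and 457 at E14.5, against 9.19 and 8.78 at E12.5 (log2 change 3.69, SE 0.71, limma adjusted p = 0.00569) and was much higher in E14.5 replicate 2 than in replicate 1. Dnd1, whose loss removes germ cells in mice, read 543 and 536 at E14.5, against 71.7 and 60.3 at E12.5 (log2 change 2.96, SE 0.59, limma adjusted p = 0.00735). Prdm1 and Tex101 rose by 1.31 and 2.38, and Kit, the receptor gene for Kit ligand, read 321 and 130.0 at E14.5, against 491 and 427 at E12.5 (log2 change -1.15, SE 0.33, limma adjusted p = 0.0431). Of these 7 calls, 2 passed with the E12.5 arrays averaged (Dazl and Ddx4) and 3 without E14.5 replicate 2 (these and Taf7l).

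Germline pluripotency genes gave few calls: of 16 tested, Tfcp2l1 rose, Tdgf1 fell and 14 did not pass. Tfcp2l1, a transcription factor gene of pluripotent cells, read 112 and 94.9 at E14.5, against 11.3 and 10.8 at E12.5 (log2 change 2.83, SE 0.47, limma adjusted p = 0.00231), while 2 other probe sets read below 7 on all 4 arrays. In knock-out testis the Tfcp2l1 change was 1.07 and did not pass (limma adjusted p = 0.273). Tdgf1, the gene of the Nodal co-receptor Cripto, read 8.94 and 9.69 at E14.5, against 24.2 and 24.8 at E12.5 (log2 change -1.10, SE 0.17, limma adjusted p = 0.00174). Tdgf1 was also the only call among 12 genes of Nodal signalling. Pou5f1 read 405 and 246 at E14.5, against 174 and 215 at E12.5 (adjusted p = 0.674), and Utf1 read 152 and 165 at E14.5, against 49 and 39.2 at E12.5 (adjusted p = 0.0726). Of 10 genes of male germ cell differentiation 5 rose, Piwil4, Mov10l1 and Tdrd1 of the piRNA list among them, and Tdgf1 fell. Dnmt3l, which encodes the partner of the de novo DNA methyltransferases, read 14.2 and 30.5 at E14.5, against 5.33 and 4.96 at E12.5 (log2 change 1.46, SE 0.26, limma adjusted p = 0.00411), and Tex19.1, a transposon control gene of germ cells, rose by 2.84. Dnmt3l was the only one of 12 DNA methylation and demethylation genes that changed: Dnmt3a read 879 and 929 at E14.5, against 668 and 652 at E12.5 (adjusted p = 0.0996). Nanos2 has no probe set named here.

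Some genes of meiosis rose in the testis, and more strongly in the array with the Xist signal. Of 21 tested 7 rose and none fell, with a median of 0.93. Tex12, a synaptonemal complex gene, read 124 and 329.7 at E14.5, against 8.06 and 8.35 at E12.5 (log2 change 4.08, SE 0.45, limma adjusted p = 1.33e-04). Sycp1, Sycp2 and Sycp3, which encode other parts of that complex, read 55.3 and 242, 73.1 and 316, and 376 and 1560.3 at E14.5, against 4.85 and 4.37, 12.2 and 11.5, and 87 and 81.3 at E12.5. In each of these 4 genes E14.5 replicate 2 was the higher array by a wide margin, and replicate 1 still lay well above both E12.5 arrays. Tex15, a germ cell gene needed for meiotic recombination and for transposon silencing, read 574 and 1100.2 at E14.5, against 110.3 and 103 at E12.5 (log2 change 2.85, SE 0.35, limma adjusted p = 3.30e-04), and Syce1 and Smc1b rose by 2.47 and 2.76. Stra8, the gatekeeper gene of meiosis, read 5.55 and 104 at E14.5, against 4.67 and 4.55 at E12.5 (adjusted p = 0.172), so that replicate 1 was at the level of E12.5 and replicate 2 was not. In wild-type ovary, 20 of the 21 genes rose, with a median of 3.12, where 2.5% of all genes rose. Without E14.5 replicate 2, 4 of the 7 testis rises passed (Tex12, Tex15, Syce1 and Sycp2), with the E12.5 arrays averaged 5, and with both changes 2. A difference between testis and ovary in the change itself passed for 1 of the 21, Dmc1, and for 10 of the 21, all with the larger change in ovary, without ovary E14.5 replicate 2. Without ovary E12.5 replicate 1 it passed for 3.

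**Figure D3:**
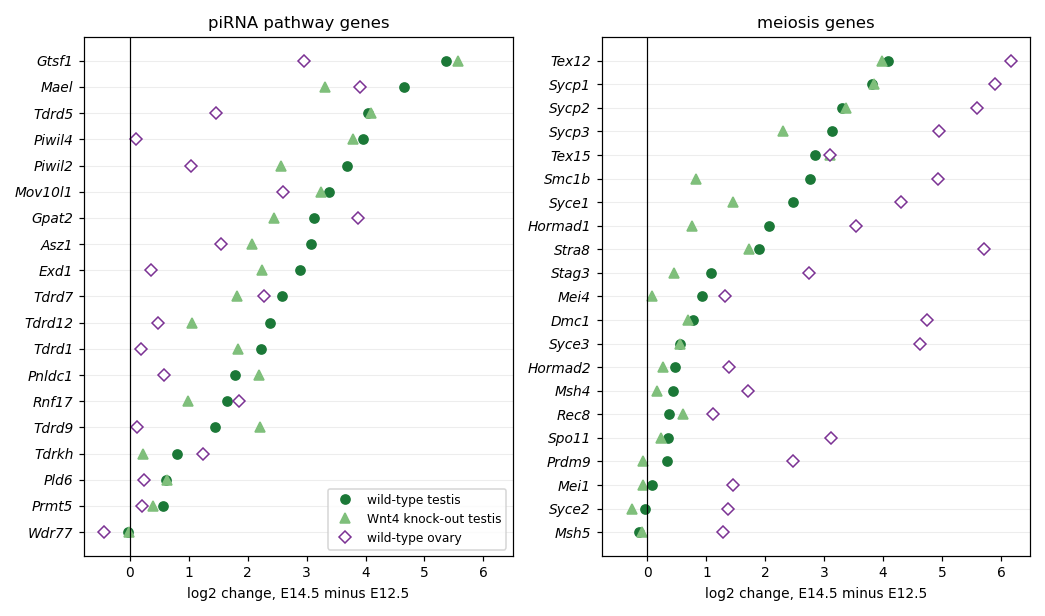
Log2 change from E12.5 to E14.5 (x axis) of the tested genes of the piRNA pathway and of meiosis, in wild-type testis (filled circles), Wnt4 knock-out testis (triangles) and wild-type ovary (open diamonds); all but 1 of the piRNA genes lie above 0 in wild-type testis, with 16 past the threshold. Medians in wild-type testis and ovary were 2.59 and 1.04 for piRNA genes, and 0.93 and 3.12 for meiosis genes.

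Sertoli cell genes changed less. Of 11 determination genes tested, Fgfr2, the FGF9 receptor gene, rose by 0.82, Nr0b1, a nuclear receptor gene, fell by 1.23 on the log2 scale and 9 did not pass. Sox9, the transcription factor gene that fixes the Sertoli fate, read 114 and 107 at E14.5, against 112 and 118 at E12.5 (adjusted p = 0.954). Neither call passed with the E12.5 arrays averaged or without E14.5 replicate 2. Of 17 genes of secreted and later products 4 rose and 13 did not pass. Clu, which encodes the chaperone clusterin, read 6257 and 5877 at E14.5, against 1847 and 1738 at E12.5 (log2 change 1.76, SE 0.22, limma adjusted p = 3.85e-04). Hsd17b3, whose enzyme makes testosterone from androstenedione, read 206 and 90.6 at E14.5, against 14.8 and 15.4 at E12.5 (log2 change 2.88, SE 0.58, limma adjusted p = 0.00756). Hsd17b1 and Inha rose by 1.95 and 2.01. Only Clu passed with the E12.5 arrays averaged. Amh, the defining Sertoli hormone gene, read only 20.2 and 39.6 at E14.5, against 11.1 and 10.8 at E12.5 on its probe set (adjusted p = 0.0547), and Dhh, the desert hedgehog gene, read 630.0 and 552 at E14.5, against 509 and 419 at E12.5 (adjusted p = 0.819). Among 11 desert hedgehog pathway genes, the co-receptor gene Cdon, the effector gene Gli2 and the receptor gene Ptch1 rose, by 1.31, 0.85 and 0.61. Of these 3, Cdon alone passed with the E12.5 arrays averaged (adjusted p = 0.0411, against 0.133 for Gli2 and 0.199 for Ptch1), 1 passed without E14.5 replicate 2, and none without E12.5 replicate 2 or with both changes.

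Some genes known from contractile cells around the cords and from the stroma rose. Of 6 peritubular and smooth muscle genes 3 rose: Acta2, the smooth muscle actin gene, read 3237 and 2785 at E14.5, against 1023 and 967 at E12.5 (log2 change 1.59, SE 0.24, limma adjusted p = 0.00123), Myocd, a master regulator gene of smooth muscle, read 119 and 117 at E14.5, against 31.5 and 26.8 at E12.5 (log2 change 1.88, SE 0.29, limma adjusted p = 0.00129), and Myh11 rose by 1.90. Of 13 interstitial progenitor and stroma genes 5 rose. Lum, which encodes a small proteoglycan of the matrix, read 2002 and 2064 at E14.5, against 798 and 762 at E12.5 (log2 change 1.38, SE 0.14, limma adjusted p = 8.69e-05). Dcn, which encodes another, read 3493 and 3207 at E14.5, against 1368 and 1310.4 at E12.5 (log2 change 1.32, SE 0.14, limma adjusted p = 1.33e-04). Neither gene overlapped between the stages. Ogn rose by 2.14, Wnt5a by 0.99 and Pdgfra, the PDGF receptor gene of interstitial cells, by 0.83. Nr2f2 and Tcf21, transcription factor genes of interstitial progenitors, did not pass (adjusted p = 0.908 and 0.287). Acta2 and Myocd passed with the E12.5 arrays averaged, as did 4 of the 5 stroma genes, all but Wnt5a. With both changes none of the 3 and 2 of the 5 passed. Lum, Dcn and Ogn also rose in knock-out testis and in ovary.

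Matrix genes were among the lists with the highest share of rises. Of 12 fibrillar collagen and stromal matrix genes 10 rose and none fell (median 1.23), and of 21 basement membrane genes 13 rose and none fell (median 0.85). Col6a3, Col6a2 and Col6a1, the chains of collagen VI, rose by 1.96, 1.93 and 1.82, and Col1a1, the main chain of collagen I, read 4507 and 4185 at E14.5, against 1426 and 1284 at E12.5 (log2 change 1.68, SE 0.28, limma adjusted p = 0.00237). Among basement membrane genes, Col4a4, a collagen IV chain, read 115 and 129 at E14.5, against 9.64 and 8.0 at E12.5 (log2 change 3.30, SE 0.42, limma adjusted p = 4.05e-04), Lama2, a laminin chain, read 80.6 and 64.4 at E14.5, against 11.1 and 12.5 at E12.5 (log2 change 2.27, SE 0.31, limma adjusted p = 6.69e-04), and Hspg2, the perlecan gene, read 144 and 76.1 at E14.5, against 25.3 and 24.1 at E12.5 (log2 change 1.92, SE 0.33, limma adjusted p = 0.00285). Fn1, the fibronectin gene, rose by 1.13, but its change was -0.10 when all its probe sets were averaged. Col4a1 and Col4a2 rose by 0.99 and 1.11. With the E12.5 arrays averaged 7 collagen and 4 basement membrane rises passed, without E14.5 replicate 2 8 and 7, and with both changes 1 and 4. In knock-out testis 4 genes of each list rose, and in ovary 2 collagen genes (none without ovary E14.5 replicate 2) and none of the basement membrane. Of 12 genes of the IGF axis the binding protein genes Igfbp5, Igfbp2 and Igfbp6 and the adaptor gene Irs1 rose, by 1.04, 0.92, 1.66 and 0.74, and Igf1 and Igf2 did not pass. Igfbp5 alone passed with the E12.5 arrays averaged, where the adjusted p of Igfbp2, Igfbp6 and Irs1 was 0.0629, 0.0849 and 0.146. Of these 4 rises 3 passed without E14.5 replicate 2 and none with both changes.

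All 13 tested genes of chromaffin cells and neurons fell, with a median log2 change of -2.48. Their summed intensity was 656 and 469 at E14.5, against 3694 and 3739 at E12.5. Chgb read 4.51 and 6.32 at E14.5, against 993 and 883 at E12.5 (log2 change -6.65, SE 0.63, limma adjusted p = 6.45e-05). Isl1, a transcription factor gene of neurons, read 11.3 and 13.8 at E14.5, against 303 and 320.2 at E12.5 (log2 change -4.26, SE 0.39, limma adjusted p = 6.05e-05), and Gap43, which encodes a growth cone protein, read 19.5 and 14.2 at E14.5, against 335 and 354 at E12.5 (log2 change -4.07, SE 0.41, limma adjusted p = 7.96e-05). In these 3 genes both E14.5 arrays were low and both E12.5 arrays high. Of the genes of catecholamine synthesis, Th read 5.76 and 5.55 at E14.5, against 30.1 and 30 at E12.5 (log2 change -1.82, SE 0.26, limma adjusted p = 9.12e-04), Dbh read 7.76 and 12.1 at E14.5, against 78.3 and 109.5 at E12.5 (log2 change -2.81, SE 0.42, limma adjusted p = 0.00114) and Ddc read 108 and 68.3 at E14.5, against 384 and 401 at E12.5 (log2 change -2.14, SE 0.31, limma adjusted p = 9.23e-04). Each of the 13 was lower in both E14.5 arrays than in both E12.5 arrays, as were 29.1% of all genes tested. With the E12.5 arrays averaged 10 of the falls passed, without E14.5 replicate 2 10, and with both changes 3. In wild-type ovary 10 of the 13 fell as well, where 1.86% of all genes fell, and in knock-out testis 3, where 1.27% of all genes fell. Chgb read 6.47 and 10.6 at E14.5, against 689 and 98.2 at E12.5 in knock-out testis, so that knock-out arrays of the earlier stage differed widely. Whether tissue next to the gonad was included to a different degree at the 2 stages was not tested.

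**Figure D4:**
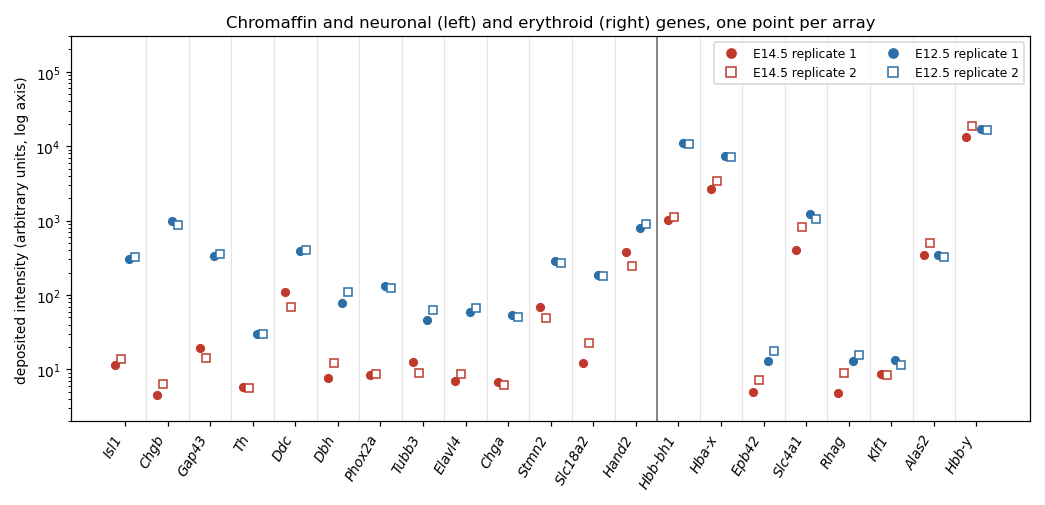
Deposited intensity (y axis, log scale, arbitrary units) of 13 genes of chromaffin cells and neurons and 8 erythroid genes, 1 point per wild-type testis array, with E14.5 in red left of E12.5 in blue. All 13 neuronal genes are lower at E14.5, while Hbb-bh1 and Hba-x fell and Hbb-y did not pass.

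Embryonic globin genes differed from each other. Hbb-bh1, a beta-like globin gene of the first, yolk-sac derived red cells, read 1024 and 1119.9 at E14.5, against 11158 and 10816 at E12.5 (log2 change -3.35, SE 0.48, limma adjusted p = 9.23e-04), and Hba-x, the zeta globin gene, read 2696 and 3352 at E14.5, against 7489 and 7158 at E12.5 (log2 change -1.28, SE 0.33, limma adjusted p = 0.0267). Hbb-y, another embryonic beta-like globin gene, read 13466 and 18896 at E14.5, against 17149.8 and 16733 at E12.5 (adjusted p = 0.783). Of 8 erythroid genes tested 3 fell, these 2 and Epb42, and Hbb-bh1 alone passed with the E12.5 arrays averaged. Both genes fell in knock-out testis (-3.58 and -1.65) and in ovary (-4.28 and -2.24) too.

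Lists of genes of other tissues were short and held at most 2 calls each, where over all genes tested 6.73% rose and 3.86% fell. Ret, a receptor gene of nerve and kidney duct cells, and Calb1, a calbindin gene, fell among 10 mesonephros and duct genes, by 2.04 and 2.20 on the log2 scale. Of the striated muscle genes, troponin gene Tnni1 read 29 and 18.8 at E14.5, against 90.7 and 98.3 at E12.5. Cardiac actin gene Actc1 read 64.7 and 36.4 at E14.5, against 235 and 251 at E12.5. Both fell, but not with the E12.5 arrays averaged. Summed over the 8 muscle genes tested, intensity was 252 and 227 at E14.5, against 507 and 531 at E12.5. Of 4 adrenal cortex genes only Mc2r changed, and Cyp21a1 and Cyp11b1, which define that tissue, read at most 16.7 on any wild-type testis array. Egfl7 and Cldn5 fell among 15 endothelial genes, Hey1 among 10 arterial ones, Mrc1 rose among 13 macrophage genes and Krt8 among 7 of the surface epithelium, and none of these 5 calls passed with the E12.5 arrays averaged. None of 14 pre-granulosa genes, the supporting cell genes of the ovary, passed: Foxl2, their defining factor, read 12.7 and 22.7 at E14.5, against 6.67 and 8.53 at E12.5 (adjusted p = 0.209), and Fst read 67.3 and 170.0 at E14.5, against 69.6 and 70.1 at E12.5, in both cases highest in the array with the Xist signal.

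Genes of retinoic acid handling changed in both directions. Crabp1, which encodes a retinoic acid binding protein, read 296 and 107 at E14.5, against 1558 and 1437 at E12.5 (log2 change -3.04, SE 0.37, limma adjusted p = 3.17e-04). Its relative Crabp2 read 280.1 and 342 at E14.5, against 822 and 813 at E12.5 (log2 change -1.39, SE 0.24, limma adjusted p = 0.00323). Both falls passed with the E12.5 arrays averaged and without E14.5 replicate 2. Aldh1a3 and Aldh1a1, genes of retinoic acid synthesis, rose by 1.55 and 1.09 and did not pass in either setting. Cyp26b1, whose enzyme degrades retinoic acid in the fetal testis, read 227 and 74.9 at E14.5, against 138 and 192 at E12.5 (adjusted p = 0.792), and its E14.5 arrays lay on either side of those at E12.5.

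Cell cycle genes were nearly level. Of 21 proliferation genes Top2a and Mki67 rose, by 0.53 and 0.41, and 19 did not pass, and of 17 genes of G1 control Cdkn1c, an inhibitor gene, fell (-0.65). These 3 calls were lost with the E12.5 arrays averaged and without E14.5 replicate 2, and Top2a changed by -0.45 when its probe sets were averaged. Cdkn1b, another inhibitor gene, read 508 and 896 at E14.5, against 483 and 452 at E12.5 (adjusted p = 0.206). Of 13 imprinted genes Plagl1 rose and Cdkn1c, Nnat and Meg3 fell, none of them with the E12.5 arrays averaged. Of 11 immediate early and heat shock genes 4 rose, all of them heat shock genes. Hspa1b, a stress-induced chaperone gene, read 1051 and 1383 at E14.5, against 126 and 147 at E12.5 (log2 change 3.11, SE 0.38, limma adjusted p = 2.65e-04), and its neighbour and close copy Hspa1a read 75 and 113 at E14.5, against 8.8 and 5.76 at E12.5 (log2 change 3.10, SE 0.30, limma adjusted p = 7.08e-05), so that probes may not tell these 2 apart. Hsph1 and Hspb1 rose by 1.00 and 1.67, while the stress-induced immediate early genes Fos, Egr1, Jun and Atf3 did not pass.

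**Figure D5:**
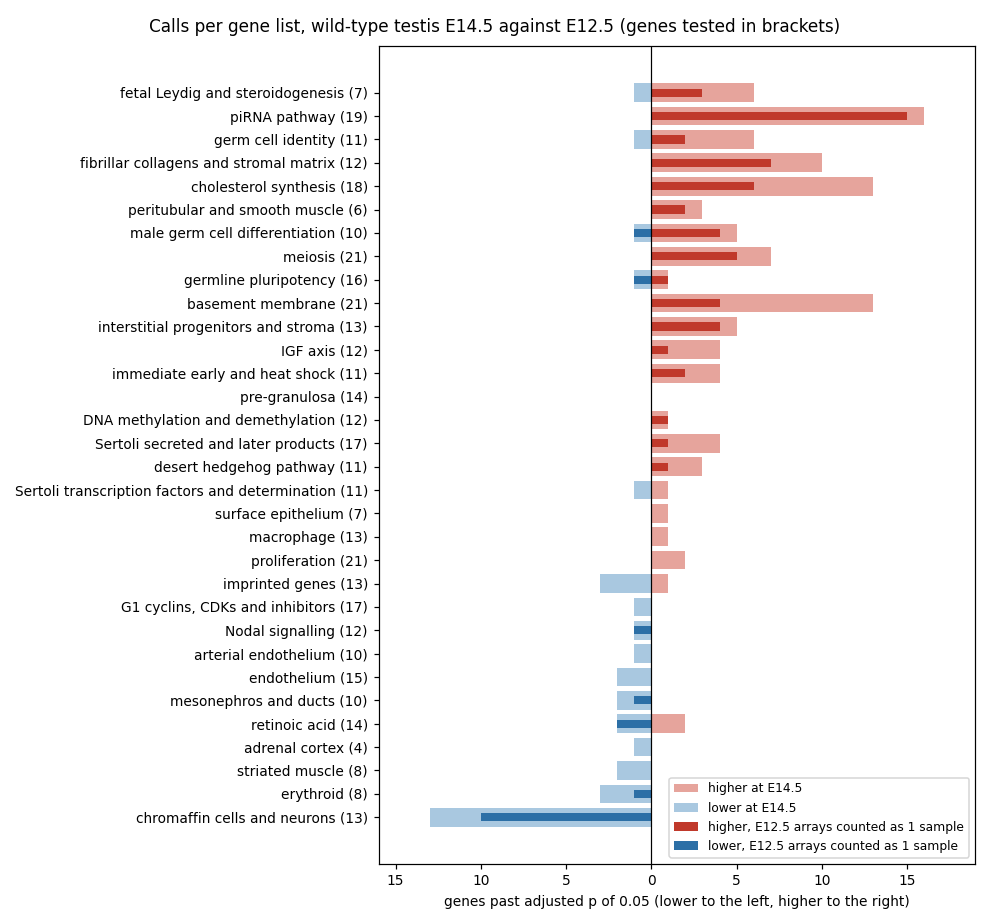
Number of genes per list past an adjusted p of 0.05 in wild-type testis (x axis, lower at E14.5 to the left, higher to the right), with lists ordered by their median change and genes tested in brackets. Pale bars use all arrays and dark bars count the E12.5 arrays as 1 sample: the piRNA list has 16 and 15 rises, and the chromaffin and neuronal list 13 and 10 falls.

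Whether a change in the testis differed from the change in the ovary over the same days was tested directly, as the difference between the 2 log2 changes, testis minus ovary. It passed for 19 genes (0.154% of those tested), with 14 differences above 0 (0.113%) and 5 below (0.0405%), and 2244 genes had an unadjusted p below 0.05. With the E12.5 testis arrays averaged, 3 genes passed, Clps, M1ap and Dmc1. The count depended on single arrays: it was 13 without testis E14.5 replicate 2, 792 without ovary E12.5 replicate 1, 530 without ovary E14.5 replicate 2, and 2 to 11 without any 1 of the other 5 arrays. Of the wild-type ovary arrays, E12.5 replicate 1 had the highest Y-linked signal, 22.6% of the level in testis. Clps, which encodes colipase, a cofactor of pancreatic lipase, read 96.7 and 115 at E14.5, against 3.85 and 3.79 at E12.5 in testis, and 4.32 and 10.1 at E14.5, against 3.78 and 4.52 at E12.5 in ovary (difference 3.39, SE 0.32, limma adjusted p = 7.50e-04). Clps was at the dim level in all arrays but those of testis at E14.5, and in ovary E14.5 replicate 2, the array of that stage with Y-linked signal, it was higher than in replicate 1. Dmc1, the recombinase gene of meiosis, read 9.62 and 12.2 at E14.5, against 4.77 and 4.55 at E12.5 in testis, and 398 and 162 at E14.5, against 6.74 and 4.6 at E12.5 in ovary (difference -3.97, SE 0.48, limma adjusted p = 0.00533). M1ap, a gene of male meiosis, read 5.97 and 15 at E14.5, against 4.86 and 4.59 at E12.5 in testis, and 359.6 and 226 at E14.5, against 6.07 and 6.09 at E12.5 in ovary (difference -4.18, SE 0.47, limma adjusted p = 0.00356), and Spdya, a cyclin-dependent kinase activator gene of germ cells, differed likewise (difference -4.64, SE 0.79, limma adjusted p = 0.0371). These 3 genes rose in ovary and did not pass in testis.

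Among the 14 genes with a difference above 0, 3 belonged to the piRNA list. Piwil4 read 6.61 and 9.67 at E14.5, against 6.49 and 7.86 at E12.5 in ovary, with a change of 0.11 there and 3.96 in testis (difference 3.85, SE 0.66, limma adjusted p = 0.0373). Gtsf1 read 56.6 and 51.1 at E14.5, against 3.45 and 3.4 at E12.5 in ovary, where it rose by 2.96, against 5.37 in testis (difference 2.41, SE 0.40, limma adjusted p = 0.0328), and Tdrd9 changed by 0.12 in ovary (difference 1.31, SE 0.21, limma adjusted p = 0.0298). For the other 16 piRNA genes the difference did not pass. Without ovary E14.5 replicate 2 it passed for 8 of the 19, and without ovary E12.5 replicate 1 for 5, all above 0. Tfcp2l1 read 18.4 and 73.5 at E14.5, against 48.7 and 110.2 at E12.5 in ovary (difference 3.73, SE 0.66, limma adjusted p = 0.0493), so that both ovary arrays at E12.5 read higher than wild-type testis at that stage. Knock-out testis at E12.5 also read higher than wild-type testis, at 57.7 and 65.5, against 132 and 135 at E14.5. Gsta2 changed by 0.57 in ovary (difference 3.58, SE 0.56, limma adjusted p = 0.0261), and Ripk4, a kinase gene known from skin, changed by 0.19 there and by 3.08 in testis (difference 2.89, SE 0.48, limma adjusted p = 0.0328). For the steroidogenic genes no difference passed with all arrays, and this rested on ovary E14.5 replicate 2. Cyp17a1 read 6.58 and 1459 at E14.5, against 4.75 and 5.95 at E12.5 in ovary, and Cyp11a1 read 5.5 and 847 at E14.5, against 32.6 and 14.4 at E12.5, so that replicate 2 alone was high. Without that array the ovary change of Cyp17a1 was 0.18, against 3.74 with it and 7.39 in testis (difference 7.21, limma adjusted p = 0.00801), and the difference for Cyp11a1 was 6.82 (limma adjusted p = 0.0017). It then passed for 6 of the 7 genes, all but Mc2r, and for 530 of all 12336 genes.

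The same changes were read in Wnt4 knock-out testis, which shares no array with wild-type testis but shares the estimate of the spread. There 498 genes changed (4.04%), 341 rose (2.76%) and 157 fell (1.27%), and 176 to 495 changed when single knock-out arrays were left out. Of the 830 genes that rose in wild-type testis, 805 had a positive change in knock-out testis and 282 rose there, and of the 476 that fell 461 had a negative change and 83 fell. The 365 genes called in the same direction in both are 27.9% of the wild-type calls and 73.3% of the knock-out calls. Cyp17a1 changed by 7.39 in wild-type and 5.76 in knock-out testis, Cyp11a1 by 5.37 and 4.51, Mael by 4.65 and 3.31, and Gtsf1 by 5.37 and 5.58. Of these 4, Mael and Gtsf1 passed in knock-out testis, while Cyp17a1 and Cyp11a1 did not (adjusted p = 0.0582 and 0.0933), and Cyp17a1 read 5193 and 3721 at E14.5, against 20.1 and 268 at E12.5 there, with unlike arrays at E12.5. Mael read 1432 and 1623 at E14.5, against 134 and 167 at E12.5 in knock-out testis, so that it was higher at E12.5 than in wild-type testis. In the piRNA list 13 of 19 rose in knock-out testis (median 2.19).

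A difference between wild-type and knock-out testis in the change itself passed for 1 gene (0.00811% of those tested), Galnt5, which encodes an enzyme that starts O-linked glycosylation. Galnt5 read 49 and 52.8 at E14.5, against 5.53 and 5.04 at E12.5 in wild-type testis, and 5.73 and 10.9 at E14.5, against 5.77 and 6.32 at E12.5 in knock-out testis (difference 2.30, SE 0.26, limma adjusted p = 0.00699). Both wild-type E14.5 arrays stood above all 6 other testis arrays. At an unadjusted p below 0.05 the difference was found in 563 genes. The call was lost with the E12.5 arrays averaged (adjusted p = 0.0823), and without E14.5 replicate 2 no gene passed. Leaving out single knock-out arrays gave 0 to 7 genes.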

How the data were processed

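Labelled RNA of 16 gonad samples was hybridised to Affymetrix Mouse430_2 arrays. The deposited values are linear intensities for 45101 probe sets, made by the authors with MAS5 per the submitters' processing notes; its version is not given in the sources used here. Mean intensity per array lay between 272 and 288, so no further scaling was applied. The number of arrays limits the precision. Gene symbols came from the platform annotation: 34945 probe sets had 1 symbol, 932 several and 9160 none here, and 64 were controls. The probe set with the highest mean stood for each gene, and 12336 genes exceeded the array median in at least 2 arrays. Differences of log2(intensity + 4) were tested with limma 3.58.1 in R 4.3.3 (8 groups, 16 arrays, trended eBayes, Benjamini-Hochberg over all genes, threshold 0.05, two-sided). In data simulated for wild-type testis over 12336 genes, 49 of 100 genes changed 2-fold and 90 of 100 changed 4-fold were recovered, and 7 unchanged genes were called. Noise was drawn independently for each array, with 1 spread per gene in all groups. The near-identical E12.5 pair and RNA of the opposite sex were not modelled, so these rates need not hold for the real arrays. Figures were drawn with matplotlib 3.10.9 in Python 3.11.15.

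Replicate numbers are shared between groups, but the protocols name no pairing, so the numbers were not taken to pair samples. The deviations of wild-type testis arrays with the same number correlated by -0.07 over 1 pair. That value cannot decide whether the numbers pair samples, because it rests on 1 pair and the E12.5 arrays barely differ. Members and gene lists were chosen with earlier results of these data known. Named were the 4 markers, the 15 largest rises and falls whose arrays did not overlap, up to 4 genes of each list by smallest p and the 8 largest differences of each interaction. Other genes that are named were chosen after their values were seen. Motifs were chosen likewise, and promoter windows are the 250 bases before the RefSeq start. Alternatives covered the pseudocount, filter, normalization, variance model, probe set choice, replicate block, a covariate for RNA of the opposite sex, averaging the E12.5 arrays and leaving out arrays. The setting that combines the last 2 was added after seeing the data.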

Additional observations from a re-analysis of the deposited data

Results flagged for a closer look

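The change from E12.5 to E14.5 differed between wild-type testis and wild-type ovary for 19 genes, by a test of the difference itself. Only those of the 19 that were among the genes chosen to be named are listed, as testis minus ovary on the log2 scale. The change was higher in testis for Piwil4 (3.85), Tfcp2l1 (3.73), Gsta2 (3.58), Clps (3.39), Ripk4 (2.89), Gtsf1 (2.41), Galnt5 (1.88) and Tdrd9 (1.31). It was lower in testis for Spdya (-4.64), M1ap (-4.18) and Dmc1 (-3.97). For Galnt5 the change also differed between wild-type and Wnt4 knock-out testis, by 2.30. Of these differences from the ovary, those of Clps, M1ap and Dmc1 passed with the E12.5 testis arrays averaged, where the limma adjusted p was 0.011, 0.036 and 0.0485. The Galnt5 difference from knock-out testis had an adjusted p of 0.0823 there.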

How the results depend on the processing

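The number of changed genes in wild-type testis (1306, with 830 rises and 476 falls) stayed within 1.5 times under other pseudocounts, filters, quantile normalization, no trend and averaged probe sets (1207 to 1333). It was 3940 (2311 and 1629) with array weights, 3365 (1967 and 1398) with only the 4 arrays fitted, 769 (508 and 261) with at least 2-fold required and 302 (224 and 78) with the E12.5 arrays averaged. With the covariate for RNA of the opposite sex it was 910 (629 and 281). Leaving out 1 array gave 260 to 741 changed genes, 195 to 526 rises and 65 to 215 falls. With the E12.5 arrays averaged and E14.5 replicate 2 left out it was 98 (77 and 21). Rises made up 63.6% of the calls with all arrays, 58.5% with only the 4 arrays, 58.7% with array weights, 74.2% with the E12.5 arrays averaged and 78.6% with both changes.

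Genes whose change differed between testis and ovary numbered 19, against 31 with a pseudocount of 16, 9 after quantile normalization, 4 with only the arrays compared, 3 with the E12.5 testis arrays averaged, 7 with the covariate, 2 with both changes and 2 to 792 without 1 array. Between wild-type and knock-out testis the number was 1, against 3 with array weights, 0 with only the arrays compared, 0 with the E12.5 arrays averaged, 0 with both changes and 0 to 7 without 1 array. Knock-out testis had 498 changed genes (176 to 495 without 1 array), and ovary 538 (192 with array weights, 116 with only its arrays, 210 to 1258 without 1 array). With the replicate number as a block, 1342 genes changed in wild-type testis (824 and 518), and 28 and 1 genes differed from ovary and knock-out testis. In the labels, same-numbered arrays share only a number.

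Among named genes the sign turned for Cyp11b1 (-0.07 without E12.5 replicate 1 and -0.14 without E14.5 replicate 1, up to 0.25 without replicate 2), for Spdya (-0.19 without E14.5 replicate 2, also with the E12.5 arrays averaged, and 1.56 without replicate 1) and, with probe sets averaged, for Fn1 (-0.10), Hells (-0.36), Nrp1 (-0.48) and Top2a (-0.45). The cause was not tested. Limits lie in 2 arrays per stage, in the near identity of the E12.5 pair, which lowers the spread the fit sees, in the Xist signal of E14.5 replicate 2, and in dim probe sets, where added background shrinks changes.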
